A study of Homo sapiens with 4 samples.

Results

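CSF1, CSF2 and IL6 are genes of secreted proteins that act on myeloid cells, and all 3 were listed at higher levels in RCC4 cells carrying an anti-MIRE hairpin (shMIRE, 2 libraries) than in RCC4 cells with a control hairpin (shControl, 2 libraries). They are 3 of the 1176 genes in the deposited tables. The genes were chosen by name with their shMIRE and shControl values known, so their difference between the groups is described and not tested. The RCC4 line was derived from a clear cell carcinoma of the human kidney, and its VHL tumour suppressor is not functional. The shMIRE cells are labelled as a MIRE knockdown and the shControl cells as wild type. Cells of both groups were infected with hairpin lentiviruses, were of the same line, and were collected on day 3. The labels give neither the number of hairpins nor whether both libraries of a group were infected separately. Every p-value below therefore rests on library-to-library spread, which may be purely technical. RefSeq lists the name MIRE as a synonym of SAP30-DT, a long non-coding RNA gene on chromosome 4 (GRCh38.p14, 173349231 to 173370698), and its level was not analysed here.

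CSF1, or macrophage colony-stimulating factor, signals through the receptor tyrosine kinase CSF1R and sustains the survival and growth of monocytes and macrophages. CSF2, or granulocyte-macrophage colony-stimulating factor, binds a receptor of an alpha chain and the shared beta chain CSF2RB, and drives the growth and activation of granulocytes, macrophages and dendritic cells. IL6 binds IL6R, and the pair engages gp130, encoded by IL6ST, to activate JAK kinases and STAT3, a pathway that SOCS proteins switch off. All of these cytokine genes can be induced through NF-kB, and short AU-rich elements in the 3′ UTR of such mRNAs are bound by decay factors. In renal carcinoma these cytokines are known as links between tumour cells and the myeloid cells around them.

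The deposited values are whole numbers that look like read counts already scaled between libraries. They summed to 2043204 and 2002994 in the shMIRE libraries and to 2476944 and 2514039 in the shControl libraries, over the listed genes only, so the depth of the libraries is unknown. The tables hold genes that differed about 2-fold or more between the groups: the smallest ratio was 2.002 among the 463 genes with a higher mean in shMIRE and 1.996, as shControl over shMIRE, among the 713 with a lower mean. Being listed therefore already implies a difference. With limma, 1147 of 1176 genes (97.5%) passed at an adjusted p under 0.05, 453 of them higher in shMIRE (38.5%) and 694 lower (59.0%). A gene that is not in the tables was not analysed here.

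CSF1 was 2.78 times as high in shMIRE as in shControl. It was listed at 27538 and 25845 in the shMIRE libraries, against 9254 and 9975 in the shControl libraries. Both shMIRE libraries lay above both shControl libraries, and the lower shMIRE value was 2.59 times the higher shControl value. The listed genes differed about 2-fold or more, and 97.5% of all 1176 passed with limma. The share of listed genes without overlap is not given here. A lack of overlap is therefore not read as setting CSF1, CSF2 or IL6 apart from other listed genes. The means were 26692 ± 1197 in shMIRE and 9615 ± 510 in shControl (SD, n = 2 each), a ratio of 2.78 and a log2 difference of 1.47 ± 0.07 (standard error). In bulk RNA, more cells that express a gene and more RNA per cell cannot be told apart. The gap between the groups was 9.37 times the larger range within a group, a description with no value over all listed genes beside it. CSF1 (ENSG00000184371) lies on chromosome 1 from 109910242 to 109930992 on the plus strand (GRCh38, GENCODE 29), where 9 transcripts are annotated. They include CSF1-201 and CSF1-204, which encode the same 554 residues with 3′ UTRs of 2154 and 694 bases, and CSF1-205, with 256 residues. The deposited value is 1 number per gene, so these forms, among them secreted and membrane-bound ones, cannot be told apart.

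CSF2 showed the largest ratio of the 3 genes. Its values were 2536 and 2374 in the shMIRE libraries, against 409 and 508 in the shControl libraries. The groups did not overlap, and the smallest shMIRE value was 4.67 times the largest shControl value. CSF2 averaged 2455 ± 115 in shMIRE and 458.5 ± 70.0 in shControl (SD, n = 2 each), a ratio of 5.35 and a log2 difference of 2.43 ± 0.13 (standard error). Among the 463 listed genes higher in shMIRE, it ranked 68th by ratio of means, where 32 genes listed at 0 in both shControl libraries take the first places. Its shControl libraries differed by a factor of 1.24, more than the median of 1.12 over the 782 listed genes with an shControl mean above 100. CSF2 (ENSG00000164400) lies on chromosome 5 from 132073790 to 132076170 on the plus strand (GRCh38, GENCODE 29) and has 1 annotated transcript of 4 exons and 787 bases, which encodes 144 residues.

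IL6 had the smallest ratio of the 3 genes as deposited, an order that quantile normalisation turned (log2 difference 1.66 for IL6 and 1.59 for CSF1), and its shMIRE libraries were the closest to each other. It was listed at 3312 and 3389 in shMIRE, against 1269 and 1461 in shControl. Here too the groups were apart, with the lower shMIRE library at 2.27 times the higher shControl library. IL6 averaged 3351 ± 54.4 in shMIRE and 1365 ± 136 in shControl (SD, n = 2 each), a ratio of 2.45 and a log2 difference of 1.30 ± 0.10 (standard error). It ranked 271st of 463 by ratio, below the median ratio of 2.53 among higher genes with a value above 0 in shControl. IL6 (ENSG00000136244) spans chromosome 7 from 22725884 to 22732002 on the plus strand (GRCh38, GENCODE 29). Of its 2069 exonic bases, 428 are shared with the antisense gene AC073072.1 and 46 with STEAP1B on the other strand. Whether counting used strand is not given in the sources used here, so reads from these genes could not be told apart from those of IL6 where they overlap.

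**Figure D1:**
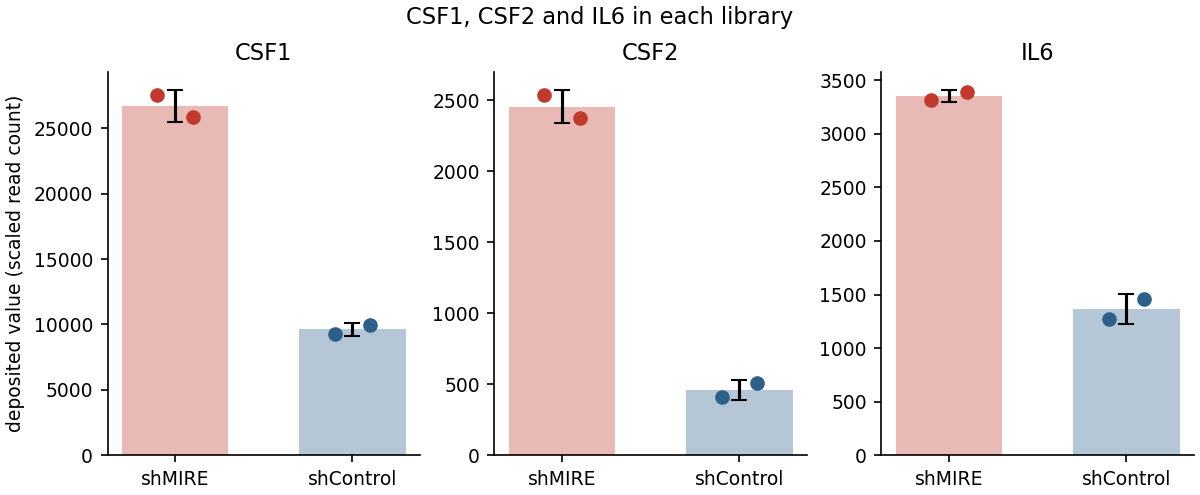
Deposited values (scaled read counts, linear axes from 0) of CSF1, CSF2 and IL6 in shMIRE and shControl. Points are libraries, bars are means and error bars are SD (n = 2). In each panel both shMIRE points lie above both shControl points, for CSF1 at 27538 and 25845 in shMIRE against 9254 and 9975 in shControl.

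**Figure D2:**
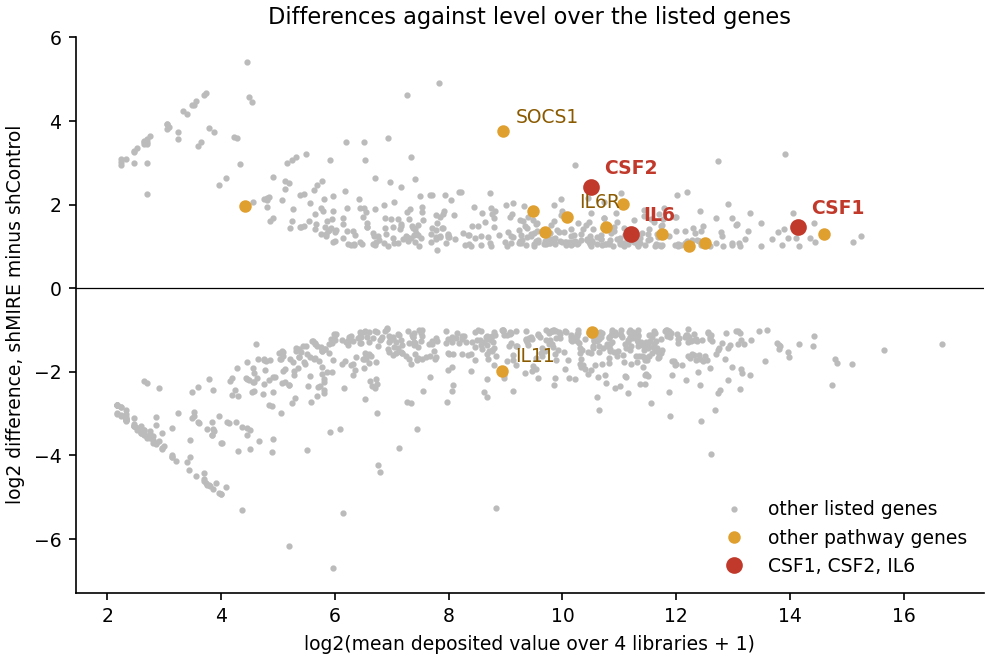
Log2 difference, shMIRE minus shControl, against the log2 mean value over 4 libraries for the 1176 listed genes, with a pseudocount of 1. The empty band around 0 comes from the choice of genes for the tables. CSF1 (1.47), CSF2 (2.43) and IL6 (1.30) are in red, and the other pathway genes in orange, with SOCS1 at 3.76 and IL11 at -1.97.

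CSF2 did not move in proportion to CSF1 and IL6. Ratios of genes within a library do not change when a library is scaled by 1 factor, but they can under quantile normalisation. The ratio of CSF2 to IL6 was 0.766 and 0.701 in the shMIRE libraries, against 0.322 and 0.348 in the shControl libraries. CSF2 thus gained on IL6 by a factor of 2.19 between the group means. The ratio of CSF2 to CSF1 was 0.0921 and 0.0919 in shMIRE, against 0.0442 and 0.0509 in shControl, a factor of 1.93. CSF1 and IL6 kept closer to each other: the ratio of IL6 to CSF1 was 0.120 and 0.131 in shMIRE, against 0.137 and 0.146 in shControl. The highest shMIRE ratio and the lowest shControl ratio of that pair were thus 0.131 and 0.137, a smaller gap than the difference between the shMIRE libraries. The order of these 2 genes by log2 difference turned with quantile normalisation, to 1.59 for CSF1 and 1.66 for IL6. The distance between centred log2 profiles over the 4 libraries was 0.21 for CSF1 and IL6, 0.96 for CSF1 and CSF2, and 1.13 for CSF2 and IL6.

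**Figure D3:**
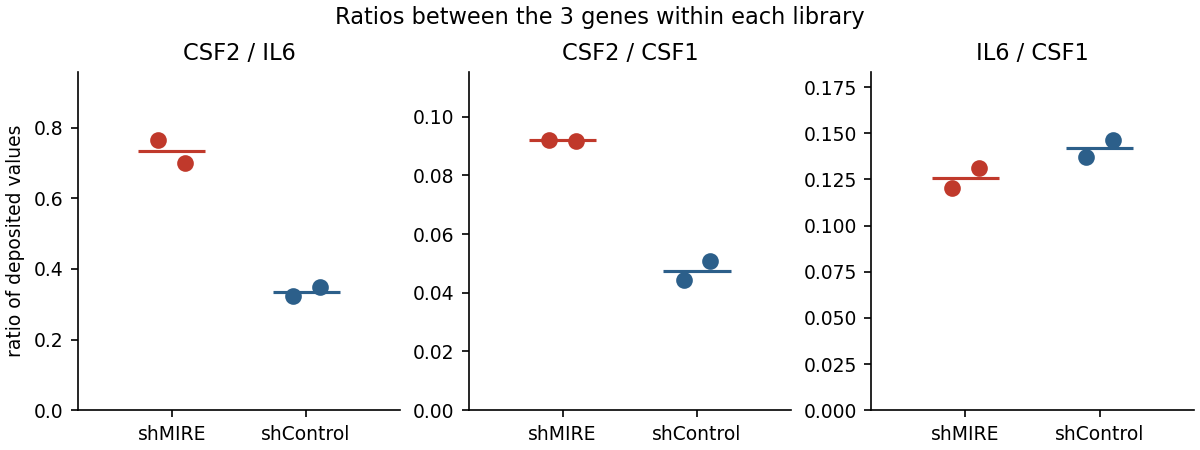
Ratios of deposited values between the 3 genes within each library (points, linear axes from 0), with group means as lines. CSF2 over IL6 stood at 0.766 and 0.701 in shMIRE and at 0.322 and 0.348 in shControl, and IL6 over CSF1 at 0.120 and 0.131 in shMIRE and at 0.137 and 0.146 in shControl.

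Levels can be compared between genes only per length. Per kilobase of annotated exon, CSF1 averaged 4926 ± 221 in shMIRE and 1775 ± 94.1 in shControl (SD, n = 2 each). The value per kilobase for CSF2 was 3119 ± 146 in shMIRE and 583 ± 88.9 in shControl, and that for IL6 was 1619 ± 26.3 in shMIRE and 660 ± 65.6 in shControl. In shMIRE the order per kilobase was therefore CSF1, CSF2, IL6, with no overlap between libraries. In shControl CSF1 was highest, while CSF2 (520 and 645) and IL6 (613 and 706) overlapped and their order was not settled. Over the 1174 listed genes with an annotated length, the median per kilobase was 68.8 in shMIRE and 80.5 in shControl. By this measure CSF1, CSF2 and IL6 ranked 12th, 22nd and 58th in shMIRE and 76th, 227th and 207th in shControl.

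The promoters of CSF2 and IL6 are shown because both genes are known targets of inducible transcription factors and both were higher in shMIRE. Each window holds the 250 bases before the transcript start, from RefSeq on GRCh38.p14, at chr5:132073539-132073788 for CSF2 and chr7:22726950-22727199 for IL6, both on the plus strand. Capitals mark matches to the motifs searched, 5′ to 3′. The RefSeq table matched 2 of the 3 genes, and CSF1 is named only.
CSF2 promoter: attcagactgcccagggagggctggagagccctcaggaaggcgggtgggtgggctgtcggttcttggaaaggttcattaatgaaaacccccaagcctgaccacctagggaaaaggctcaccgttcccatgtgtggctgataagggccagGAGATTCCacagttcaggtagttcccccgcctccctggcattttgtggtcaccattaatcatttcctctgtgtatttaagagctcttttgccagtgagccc
IL6 promoter: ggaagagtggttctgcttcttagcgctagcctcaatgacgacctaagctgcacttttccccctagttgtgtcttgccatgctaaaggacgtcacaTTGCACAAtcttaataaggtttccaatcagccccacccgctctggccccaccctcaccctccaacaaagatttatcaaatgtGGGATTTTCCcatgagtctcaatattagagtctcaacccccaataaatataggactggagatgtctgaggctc
The capitals in CSF2 are the core of the cytokine element CK-1. Those in IL6 are a C/EBP motif and, closer to the start, the NF-kB consensus.

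Both strands were searched over 250 bases before and 50 after the start for the NF-kB consensus, AP-1 (TGANTCA), CRE (TGACGTCA), the TATA box (TATAAA), C/EBP (TTGCNNAA) and the CK-1 core (GAGATTCC). IL6 held the NF-kB consensus at -73 to -64 and the C/EBP motif at -155 to -148, counted from the start. The NF-kB consensus was present in 11.3% of all 35116 promoter windows. Its share was 13% in the 1338 windows of listed genes and 13.4% in the 515 windows of those higher in shMIRE. The C/EBP motif was present in 10.5% of all windows, in 8.82% of windows of listed genes and in 10.9% of windows of higher genes. Both together, as in IL6, were found in 0.772% of all windows, in 0.972% of windows of listed genes and in 1.55% of windows of higher genes. Those of higher genes belonged to CXCL2, GLI2, HOXC5, ITGA5, MAST4 and TNFSF14 besides IL6 itself. They are few windows, and TNFSF14 was counted with each of its windows. CSF2 held the CK-1 core once, at -101 to -94, as did 0.869% of all windows. The NF-kB consensus and the C/EBP motif had no match in the CSF2 window. AP-1, CRE and TATA had no match in either gene, and their shares of all windows were 7.71%, 1.85% and 11.5%. In windows of higher genes the shares were 11.3% for AP-1, 1.94% for CRE, 9.13% for TATA and 0.777% for the CK-1 core. In windows of all listed genes they were 7.77%, 2.54%, 8.89% and 0.747%, in the same order. None of the motifs searched overlapped another in these 2 windows. A match describes letters and is not a bound site.

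In their 3′ UTRs, CSF2 and IL6 are dense in the pentamer ATTTA, the core of AU-rich elements, and CSF1 is not. This grouping depends on the motif: the stricter TTATTTANN occurs 4 times in CSF2 and 0 times in IL6 and in CSF1. A stretch of 30 bases with the most pentamers is shown for each, with pentamers in capitals, from GENCODE 29 transcripts on GRCh38, plus strand, at chr1:109930911-109930940 for CSF1, chr5:132076072-132076101 for CSF2 and chr7:22731697-22731726 for IL6.
CSF1 element: tttatataaagtcATTTAaatatctATTTA
CSF2 element: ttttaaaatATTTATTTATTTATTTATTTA
IL6 element: ttttaattatttttaATTTAttaatATTTA
The CSF2 stretch holds 5 pentamers that run into each other, and those of IL6 and CSF1 hold 2 separate ones each. Other stretches of IL6 hold as many, and the first is shown. In its longest annotated 3′ UTR, CSF2 had 8 pentamers in 318 bases, IL6 had 6 in 429 bases and CSF1 had 4 in 2154 bases. Per kilobase this is 25.2 for CSF2, 14.0 for IL6 and 1.86 for CSF1. The bases A and U made up 60.1% of this 3′ UTR in CSF2, 71.6% in IL6 and 42.3% in CSF1. Their median share over the listed genes was 55.7%, and the density was not adjusted for base composition. Among the 1163 listed genes with a 3′ UTR of at least 20 bases, CSF2 ranked 1st and IL6 4th in pentamers per kilobase, while CSF1 was near the median of 1.51, with 43.5% of listed genes at its value or above. By number alone, 18.2% of listed genes had 8 or more and 26.1% had 6 or more. The median 3′ UTR of the listed genes was 1415 bases long. The proteins that bind such elements, or stem-loops in cytokine mRNAs, were a list of 15 genes that includes ZFP36, ELAVL1 and ZC3H12A, and 0 of them were in the tables.

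**Figure D4:**
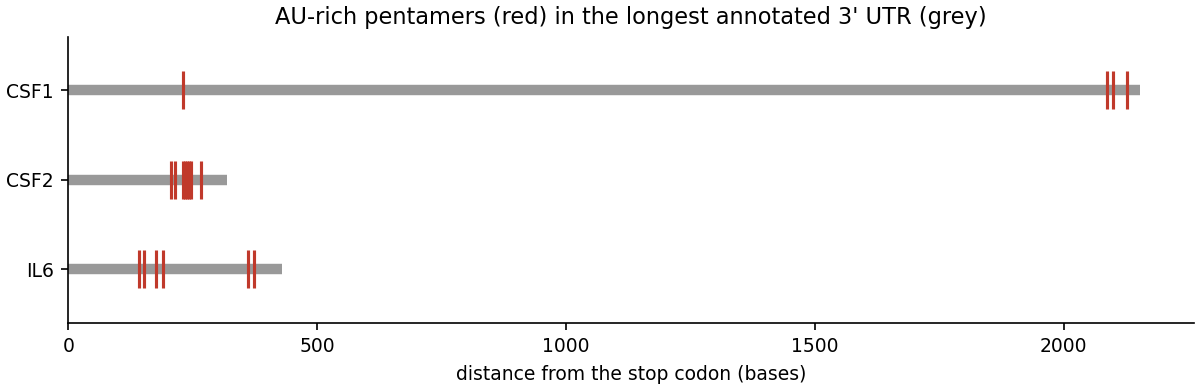
Positions of the AU-rich pentamer (red ticks) along the longest annotated 3′ UTR (grey bars) of CSF1, CSF2 and IL6, in bases from the stop codon. The 8 pentamers of CSF2 and the 6 of IL6 fall within 318 and 429 bases, and CSF1 has 4 in 2154 bases.

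The genes that surround these cytokines in their pathways were taken from lists of 158 genes, which were drawn up with earlier results of these data known. Of the 158 genes, 16 were in the tables, and 13 of these are genes other than CSF1, CSF2 and IL6. With limma, 11 of the 13 rose and 2 fell, where 38.5% of all listed genes rose and 59.0% fell. Their median log2 difference was 1.33, and that of all listed genes was -1.16. The other 142 genes were not analysed here, so these counts describe the listed genes and not the pathways.

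Among the ligands, IL11 went the other way from IL6, a cytokine of the same family. IL11, which signals through gp130 with its own alpha receptor, was listed at 246 and 159 in the shMIRE libraries, against 721 and 838 in the shControl libraries. It fell to 202.5 ± 61.5 in shMIRE, against 779.5 ± 82.7 in shControl (SD, n = 2 each), a log2 difference of -1.97 ± 0.25 (limma adjusted p = 0.00126). The ratio of the deposited values of IL6 and IL11 was 13.5 and 21.3 in the shMIRE libraries, against 1.76 and 1.74 in the shControl libraries. Gene length was not taken into account, so only the change of this ratio between libraries can be read. The call for IL11 did not hold with limma without shControl replicate 1 (adjusted p = 0.0560) or 2 (0.0656), and its adjusted p ranged from 1.46e-10 to 0.0656 over the alternatives. Of 10 ligand genes in the colony-stimulating factor list, CSF1 and CSF2 were in the tables, and of 11 in the IL6 family list, IL6 and IL11 were.

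IL6R, the alpha receptor that binds IL6, was the 1 listed gene of 16 receptor genes. It was listed at 1608 and 1692 in the shMIRE libraries, against 493 and 511 in the shControl libraries. IL6R rose to 1650 ± 59.4 in shMIRE, against 502 ± 12.7 in shControl (SD, n = 2 each), a ratio of 3.29 and a log2 difference of 1.71 ± 0.09 (limma adjusted p = 0.000124). The ligand IL6 and its receptor gene were thus both listed as higher. IL6R overlaps the antisense gene IL6R-AS1, with 0 shared exonic bases.

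SOCS1, a feedback inhibitor of JAK kinases that cytokines induce, was the 1 listed gene of 23 for JAK-STAT signalling and feedback. Its values were 1016 and 827 in the shMIRE libraries, against 56 and 79 in the shControl libraries. SOCS1 rose to 921.5 ± 134 in shMIRE, against 67.5 ± 16.3 in shControl (SD, n = 2 each), a ratio of 13.7 and a log2 difference of 3.76 ± 0.25 (limma adjusted p = 0.000175). Its ratio ranked 40th of the 463 higher genes and was the largest among the 16 listed pathway genes. SOCS3, STAT3 and the JAK genes were not analysed here.

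Of 24 NF-kB subunits and regulators, 3 were in the tables and all 3 rose with limma, where 38.5% of all listed genes rose. TRAF1, an adaptor of TNF receptors, had a ratio of 4.02 and a log2 difference of 2.01 ± 0.09 (limma adjusted p = 0.000106). RELB, the NF-kB subunit of the non-canonical pathway, was listed at 8719 and 7034 in shMIRE, against 3281 and 4133 in shControl, a ratio of 2.12 (limma adjusted p = 0.00203). BIRC3, a ubiquitin ligase that regulates NF-kB, had a ratio of 2.43 (limma adjusted p = 0.000887). With limma, RELB did not pass without shControl replicate 1 (adjusted p = 0.0624) or shMIRE replicate 1 (0.0584), with a range over its alternatives of 2.21e-09 to 0.0624, and BIRC3 did not without shMIRE replicate 1 (0.0515), with a range of 1.48e-11 to 0.0515.

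Of 27 transcription factors of the families known to act on these promoters, 3 were in the tables. CEBPB, the C/EBP factor first described as a nuclear factor for IL6, was listed at 7083 and 5730 in the shMIRE libraries, against 2791 and 3608 in the shControl libraries. It rose by a ratio of 2.002, the smallest of the 463 higher genes (limma adjusted p = 0.00320). The AP-1 subunit genes moved apart: FOSL1 rose to 35168 ± 2333 in shMIRE, against 14329 ± 1526 in shControl (SD, n = 2 each), with a limma adjusted p of 0.000275, while FOS fell to 953.5 ± 17.7 in shMIRE, against 1989 ± 363 in shControl, with a limma adjusted p of 0.00167. The limma call of CEBPB was lost without shControl replicate 1 (adjusted p = 0.0718) or shMIRE replicate 1 (0.0778), with a range over its alternatives of 1.60e-08 to 0.0778. FOS did not pass without shMIRE replicate 1 (0.0602) or 2 (0.0554), with a range of 3.24e-08 to 0.0602.

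Of 25 genes of inducing cytokines, their receptors and their adaptors, 4 were in the tables. All 4 rose with limma, where 38.5% of all listed genes rose. IRAK2, a kinase of interleukin-1 and Toll-like receptor signalling, was listed at 1169 and 1061 in shMIRE, against 260 and 362 in shControl, a ratio of 3.59 (limma adjusted p = 0.000620). IL18, a cytokine of the interleukin-1 family, and IL1RAP, the shared accessory chain of interleukin-1 receptors, had ratios of 2.79 and 2.53. TLR4, the receptor for bacterial lipopolysaccharide, was low in all libraries, at 45 and 22 in shMIRE against 6 and 9 in shControl. Its limma call was lost with either shControl library left out (adjusted p = 0.136 without replicate 1 and 0.0958 without replicate 2) and without shMIRE replicate 1 (0.0610), with a range over its alternatives of 0.00203 to 0.136. IL1A, IL1B and TNF were not analysed here. Of 7 proteases of ectodomain shedding, a step that releases membrane-bound CSF1 and the soluble form of IL6R, 0 were in the tables.

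**Figure D5:**
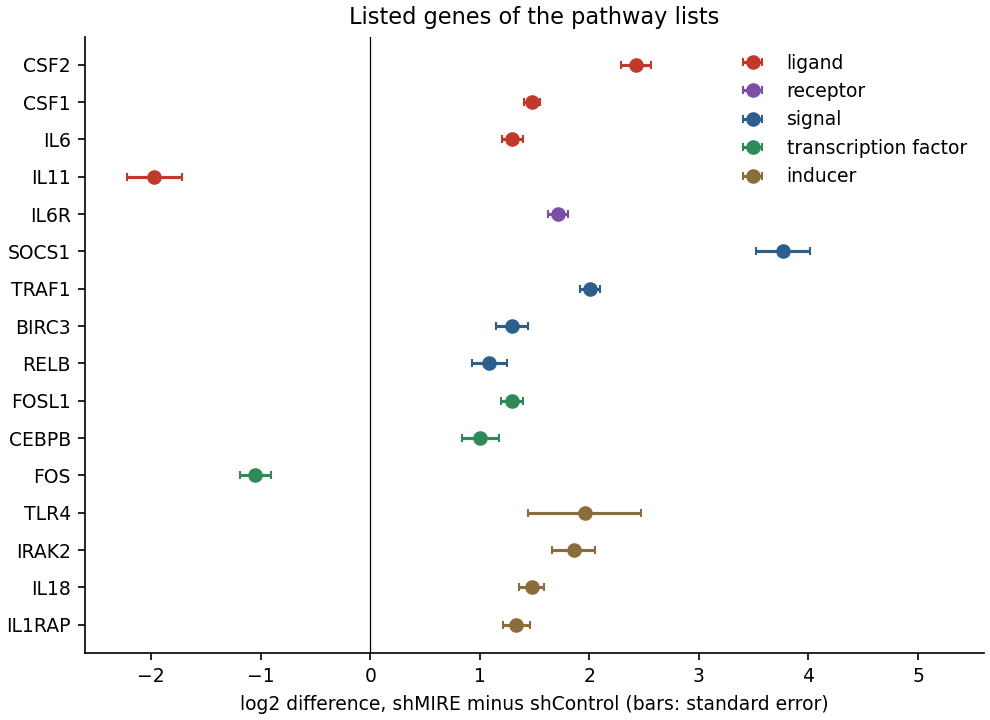
Log2 difference, shMIRE minus shControl, with its standard error from limma, for the 16 listed genes of the pathway lists, grouped by role. CSF2 (2.43), CSF1 (1.47) and IL6 (1.30) stand right of 0 with IL6R (1.71) and SOCS1 (3.76), and IL11 (-1.97) and FOS (-1.05) stand left of it.

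The genes whose pattern was most like each cytokine were found by the Euclidean distance between centred log2 profiles over the 4 libraries, among 1175 other listed genes. For CSF1 they were HS3ST3B1, a heparan sulfate sulfotransferase gene (distance 0.05), RAB19, a small GTPase gene (0.05), and ICAM1, an adhesion molecule of leukocyte contact (0.07). ICAM1 was listed at 22737 and 21784 in shMIRE, against 8115 and 8698 in shControl, both shMIRE libraries above both shControl libraries as for CSF1. For CSF2 they were ROBO4, a receptor gene of endothelial cells (0.08), TMCC3 (0.17) and NT5E, which encodes an ectonucleotidase (0.21). TMCC3 was listed at 690 and 705 in shMIRE, against 126 and 162 in shControl. For IL6 they were PMAIP1, a BH3-only gene of apoptosis (0.05), CD82, a tetraspanin gene (0.08), and PCYOX1L (0.09). PMAIP1 was listed at 4156 and 4060 in shMIRE, against 1585 and 1780 in shControl. IL6 was the 43rd closest gene to CSF1, while CSF2 was the 374th closest to it. With 4 libraries in 2 groups, likeness reflects mainly the size of the difference.

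The neighbours of the 3 genes in the genome were mostly not in the tables. Within 500 kb of CSF2, 1 of 12 coding genes in RefSeq was listed, SLC22A4, a transporter gene, at 778 and 870 in shMIRE against 372 and 401 in shControl (ratio 2.13, limma adjusted p = 0.000893). IL3, the cytokine gene next to CSF2 at a distance of 10584 bases, was not analysed here. Near CSF1, 1 of 25 coding genes was listed, the glutathione transferase gene GSTM3, at 3 and 6 in shMIRE against 16 and 47 in shControl. Near IL6, 1 of 6 was listed, RAPGEF5, a guanine nucleotide exchange factor gene, at 200 and 278 in shMIRE against 123 and 110 in shControl. With limma, GSTM3 did not pass without shControl replicate 2 (adjusted p = 0.102), shMIRE replicate 1 (0.167) or shMIRE replicate 2 (0.0983), nor with quantile normalisation (0.104). RAPGEF5 was lost with either shControl library left out (0.111 without replicate 1, 0.137 without replicate 2) and without shMIRE replicate 2 (0.0762).

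Markers of other cell types were few in the tables. Of 15 myeloid markers, CD33 (22 and 27 in shMIRE, listed at 0 in both shControl libraries) and ITGAM (155 and 146 in shMIRE, 73 and 53 in shControl) were listed, with summed values of 173 to 177 in shMIRE and 53 to 73 in shControl. Of 11 lymphocyte markers 0 were listed. Of 11 fibroblast markers 3 were listed, with sums of 4524 to 4827 in shMIRE and 1392 to 1459 in shControl. COL1A1 and COL6A3 rose with limma, while PDPN was listed at 7 and 0 in shMIRE and at 13 and 38 in shControl, with an adjusted p of 0.0482 that ranged from 0.000517 to 0.355 over its alternatives. Of 10 endothelial markers 2 were listed, with sums of 241 in each shMIRE library and 43 to 59 in shControl. ROBO4 made up most of the sums and rose, while FLT1 was listed at 0 in both shMIRE libraries, against 3 and 11 in shControl, and passed as lower. Of 15 markers of renal tubule and clear cell carcinoma 2 were listed, with sums of 1324 to 1562 in shMIRE and 581 to 790 in shControl. MIOX made up most of these sums (1562 and 1324 in shMIRE, 575 and 772 in shControl) and rose, while LRP2 was listed at 0 in both shMIRE libraries, against 6 and 18 in shControl, and passed as lower. The listed markers of fibroblasts, endothelium and kidney therefore did not share a direction. CD33 and ITGAM, 2 of 15 myeloid markers, both passed as higher, as did 38.5% of all listed genes. The other myeloid markers were not analysed here. CD33 and the markers that fell (PDPN, FLT1 and LRP2) were listed at low values. ITGAM lost its limma call without shControl replicate 2 and with either shMIRE library left out. With limma, FLT1 (adjusted p = 0.538) and LRP2 (0.178) lost their calls with quantile normalisation, and with either shMIRE library left out, FLT1, LRP2 and MIOX did not pass. CSF1R, PTPRC and CD14 were not analysed here, and the part of other cells in the cytokine values was not tested.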

How the data were processed

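RNA of 4 RCC4 libraries (shMIRE, n = 2; shControl, n = 2) was made from polyadenylated RNA with an Illumina TruSeq kit, per the labels' protocols. The submitters' processing notes name the hg38 build and the tools featureCounts 1.5.0-p3, HISAT2 2.0.5 and DESeq2 1.20.0, with no role given. The values the authors deposited, whole numbers for 1176 genes, were handled as a score: read counts that look already scaled and rounded. Neither the scaling nor the rule that chose the genes is stated. Symbols were found for 1175 genes, and lengths, 3′ UTRs and coordinates (1-based) come from GENCODE 29.

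Groups were compared on log2(value + 1), which understates the change of low genes, for genes with a mean above 1 (all 1176), with limma 3.58.1 in R 4.3.3, with its intensity trend and no covariates, in place of a count test, and Benjamini-Hochberg adjustment over all genes. The fit was tested on simulated data. The 3 genes and all lists were chosen with earlier results of these data known. Named genes are the 3 cytokines, every listed gene of the pathway lists, and for each cytokine the 3 genes closest in profile. Markers and genome neighbours were added for context. Alternatives were quantile normalisation, equal sums, no trend, a pseudocount of 0.1, other filters, the replicate number as a block and each library left out. Promoter and 3′ UTR letters were searched as described beside the results.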

Additional observations from a re-analysis of the deposited data

How the results depend on the processing

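The log2 differences of CSF1, CSF2 and IL6 stayed positive under every alternative run. They were 1.59, 2.74 and 1.66 with quantile normalisation and 1.78, 2.73 and 1.60 after scaling each library to the same total, which raised the median log2 difference of all listed genes by 0.32 and 0.30. With 1 library left out, CSF1 ranged from 1.42 to 1.53, CSF2 from 2.27 to 2.58 and IL6 from 1.20 to 1.40, with the remaining library of a group given the spread of the other group. The number of genes past the threshold was 1147, and 827 to 900 with 1 library left out. With the replicate number as a block (replicate block) it was 1175, but the deviations from group means of libraries with 1 number had a correlation of 0.0321 over genes, and the numbers were treated as names only. Of the 13 listed pathway genes besides the cytokines, 11 were past the threshold as higher and 2 as lower. Of all listed genes, 38.5% were past it as higher and 59.0% as lower. Some of the pathway calls were lost with 1 library left out, as given beside each gene. Of the 25 genes recomputed besides the cytokines (listed pathway genes, closest profiles and the 3 genome neighbours), 17 kept their call under every alternative run and 0 changed sign. Per kilobase of the longest transcript, CSF1 was at 6340 in shMIRE and 2284 in shControl, and IL6 at 2194 in shMIRE and 894 in shControl, so that IL6 then lay above CSF2 in shControl without overlap (831 and 957 against 520 and 645). With only the 100 bases before the start searched, a window shorter by construction, the shares of all promoters were 4.11% for NF-kB, 2.75% for AP-1, 1.17% for CRE, 4.99% for TATA, 3.20% for C/EBP and 0.239% for the CK-1 core. The stricter TTATTTANN left 0 elements in CSF1, 4 in CSF2 and 0 in IL6, and 2.32% of listed genes had 4 or more. A count test (DESeq2) was left out, since the values appear to be scaled. Without library totals, what depth limits is unknown.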

Other observations

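Pentamer density was also read over all 1163 listed genes with a 3′ UTR of at least 20 bases. CSF1, CSF2 and IL6 were included, and the values of CSF2 and IL6 had been seen before. The median number of ATTTA per kilobase was 1.96 over the 459 genes higher in shMIRE and 1.31 over the 704 genes lower in it, as a description with no test. After CSF2, the densest listed genes were FANK1 (19.5 per kilobase, 3 in 154 bases) and DNAI3 (14.3, 2 in 140 bases), both with short 3′ UTRs, then IL6 and the chemokine gene CXCL2 (13.9, 10 in 721 bases). FANK1 had a mean of 40 in shMIRE and 87 in shControl, so a dense 3′ UTR also occurred in a gene that was lower in shMIRE.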
